A study of Mus musculus with 6 samples.

Results

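Interferon receptors and ligands are described here in tumour cells grown with or without bone marrow-derived mesenchymal stem cells (BMSCs). The 7 members, Ifnar1, Ifnar2, Ifngr1, Ifngr2, Ifnlr1, Ifnb1 and Ifng, were chosen by gene symbol, out of 18182 genes listed in the files. Of these 7, 6 were listed and Ifnb1 was absent, 4 passed the filter on low counts and were tested, and Ifnlr1 and Ifng were listed at counts too low to test. The sequenced line was Lewis lung carcinoma (LLC), which arose in a mouse lung tumour, and carried red fluorescent protein (LLC-RFP). They were injected under the skin of wild type C57BL/6 mice either alone (LLC alone, 3 libraries) or together with BMSCs (LLC with BMSCs, 3 libraries), and fluorescent cells were sorted from the primary tumours for RNA sequencing. All 6 libraries thus share the line, the reporter, the host strain and the sort, and the mice of the study's tumour experiments were female and 6 weeks old. Nothing in the sources says that the 3 libraries of a group came from separate mice, so p-values measure the spread between libraries only.

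Interferons act through receptors built of 2 unlike chains. Type I interferons, among them interferon beta (Ifnb1), bind Ifnar1 and Ifnar2, interferon gamma (Ifng) binds Ifngr1 and is signalled through Ifngr2, and type III interferons bind Ifnlr1 paired with Il10rb, a chain also used by the interleukin 10 family. The chains carry Janus kinases, which phosphorylate STAT proteins that enter the nucleus and turn on interferon-stimulated genes. Most nucleated cells carry the type I and the gamma receptors, Ifnlr1 is largely a chain of epithelial cells, and Ifng is made mainly by T and NK cells.

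Of the 4 tested receptor chains, 4 were higher in LLC with BMSCs. Ifngr2 rose 2.21-fold, and Ifngr1, Ifnar2 and Ifnar1 rose 1.57-fold, 1.55-fold and 1.48-fold. The type III chain Ifnlr1 was not detectable at this depth, with at most 1 count in any library, and the ligands were close to the limit of detection or absent. Of all 13353 genes tested, 31.5% were called higher by the same rule (edgeR, adjusted p under 0.05) and 31.3% lower, so that a call alone was common in these data. Replicate 3 of LLC alone stood apart from the other 2 of its group, with a chi-square per gene of 57.9 and 60.2 against them where they differed from each other by 4.74. Without it, the log2 fold changes were 0.50 for Ifnar1, 0.66 for Ifnar2, 0.72 for Ifngr1 and 1.18 for Ifngr2, and 4 of 4 chains were still called.

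Of the tested chains, 3 lie in 1 cluster on chromosome 16, in the order Ifnar2, Il10rb, Ifnar1 and Ifngr2, all on the + strand and over 192.8 kb (GENCODE M21 on GRCm38). In that build Ifnar2 spans chr16:91372783-91405589, Il10rb chr16:91406164-91425834, Ifnar1 chr16:91485238-91507441 and Ifngr2 chr16:91547072-91565623. Ifngr1 lies apart at chr10:19591949-19610229. Exons of Ifnar2 and Il10rb overlap those of Gm21970, a gene annotated across both on the same strand, which the files do not list. The start regions of the 4 tested chains are shown because these 4 genes were called in the same direction, as 250 bases before and 10 bases after the RefSeq start (GRCm38.p6), with matches to the gamma activated sequence TTCNNNGAA in capitals.
Ifnar1 promoter, chr16:91484965-91485224, + strand: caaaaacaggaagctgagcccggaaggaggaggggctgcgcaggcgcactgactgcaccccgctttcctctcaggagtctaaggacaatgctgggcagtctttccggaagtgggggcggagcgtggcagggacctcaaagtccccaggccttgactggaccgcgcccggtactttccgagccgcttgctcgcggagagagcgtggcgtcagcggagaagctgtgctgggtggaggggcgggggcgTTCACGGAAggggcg
Ifnar2 promoter, chr16:91372533-91372792, + strand: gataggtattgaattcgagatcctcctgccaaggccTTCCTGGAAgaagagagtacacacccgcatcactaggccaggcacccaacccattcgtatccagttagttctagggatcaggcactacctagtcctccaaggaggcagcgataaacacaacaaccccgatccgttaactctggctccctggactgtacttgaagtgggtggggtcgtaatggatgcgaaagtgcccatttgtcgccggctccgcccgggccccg
Ifngr1 promoter, chr10:19591699-19591958, + strand: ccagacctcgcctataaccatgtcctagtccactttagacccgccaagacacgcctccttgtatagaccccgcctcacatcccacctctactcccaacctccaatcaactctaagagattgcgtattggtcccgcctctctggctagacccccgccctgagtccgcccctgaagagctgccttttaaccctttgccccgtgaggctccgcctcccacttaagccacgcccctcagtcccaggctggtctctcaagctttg
Ifngr2 promoter, chr16:91546809-91547068, + strand: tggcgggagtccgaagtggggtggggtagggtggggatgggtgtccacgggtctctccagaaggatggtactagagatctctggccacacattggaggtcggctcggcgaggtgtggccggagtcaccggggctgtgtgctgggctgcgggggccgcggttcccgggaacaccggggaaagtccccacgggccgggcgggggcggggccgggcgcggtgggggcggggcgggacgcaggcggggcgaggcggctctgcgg

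In windows from 250 bases before to 50 bases after the start, 11 motifs were searched on both strands, all chosen after results of these data were known. The interferon stimulated response element, searched as GAAA repeated after 2 bases, occurred in 3.44% of 32851 promoters and in none of the 7 members. TTCNNNGAA, the letters bound by STAT dimers, occurred in 8.30% of promoters and once each in Ifnar1, Ifnar2 and Ifng. In Ifnar1 the match began 5 bases before the start, and in Ifnar2 214 bases before it. The GC box GGGGCGGGG was in 11.4% of promoters, with 3 matches in Ifnar1, 2 in Ifngr2 and 1 in Ifnlr1. The ETS letters CCGGAAGT were in 3.89% and matched Ifnar1, and the longer ACCGGAAGT, in 1.10%, matched no member. GAAAGT, in 14.3%, matched Ifnar1, Ifnar2, Ifngr2 and Ifnb1, and CCAAT, in 37.4%, matched Ifngr1 and Ifngr2. GAAA repeated after 3 bases, in 2.75%, matched Ifnb1 only among the members, GGGANTTCC, in 1.68%, matched Ifnlr1 only, TATAAA, in 13.6%, matched Ifnb1 and Ifng, and TGANTCA, in 7.81%, matched none. Between them 3 of the 11 motifs had no match in any member, and no 2 matches overlapped within a member. The windows of Ifngr2 and Ifnar1 held 74.3% and 68.3% G and C, against a median of 52.7% over all promoters. Matches are a description of letters and were not related to the changes in level.

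Levels are given in FPKM, fragments per kilobase of transcript scaled by the library's total of counted fragments, a scale on which genes of different length can be compared. Ifnar1, the chain that holds the kinase Tyk2, was at 7.54, 8.33 and 6.74 FPKM in LLC alone replicates 1 to 3. It was at 11.1, 11.4 and 11.5 FPKM in LLC with BMSCs replicates 1 to 3. Every library with BMSCs lay above every library of LLC alone, and replicate 3 of LLC alone was the lowest. In counts, which the test used, the log2 fold change was 0.57 ± 0.08 (SE, edgeR adjusted p = 0.00055). The size of the Ifnar1 change depended on the processing: with each library's trend over transcript length removed it was 0.31 (edgeR adjusted p = 0.0016). The cause was not tested. The deposited length of Ifnar1 was 7025 bases, the longest of the tested chains. Its estimated counts were not whole in 6 of 6 libraries, so that some fragments were shared with other features, and no single gene had counts that added up with it to whole numbers (within 0.011) in all libraries.

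Ifnar2 encodes the chain that binds type I interferon most tightly and, in its membrane-spanning form, holds Jak1. Summed over its transcripts, among them that of a soluble form, the gene was at 16.4, 17.6 and 18.2 FPKM in LLC alone. It was at 28.3, 28.5 and 28.5 FPKM in LLC with BMSCs. The groups did not overlap, and the 3 libraries with BMSCs differed from each other by less than 1 FPKM. The log2 fold change in counts was 0.63 ± 0.06 (SE, edgeR adjusted p = 5.7e-05).

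Ifngr1, the ligand-binding chain of the interferon gamma receptor, was at 8.85, 8.11 and 9.62 FPKM in LLC alone. It was at 13.9, 14.1 and 14.3 FPKM in LLC with BMSCs, again without overlap. Its log2 fold change in counts was 0.65 ± 0.07 (SE, edgeR adjusted p = 0.00019). Ifngr2, the signalling chain that holds Jak2, was at 17.4, 17.1 and 18.4 FPKM in LLC alone. It was at 40.9, 39.0 and 38.5 FPKM in LLC with BMSCs. The lowest library with BMSCs was thus about 20 FPKM above the highest of LLC alone. Its log2 fold change in counts was 1.14 ± 0.06 (SE, edgeR adjusted p = 4.5e-06), higher than that of 92.5% of the tested genes. Ifngr2 was the only 1 of the 4 chains whose log2 fold change reached 1, which 8.65% of tested genes did with an adjusted p under 0.05 in the higher direction. For all 4 chains every library with BMSCs exceeded every library of LLC alone, as it did for 37.0% of all tested genes. An exact two-sided permutation test of each chain's FPKM gave p = 0.1, the smallest that 3 libraries against 3 allow.

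**Figure D1:**
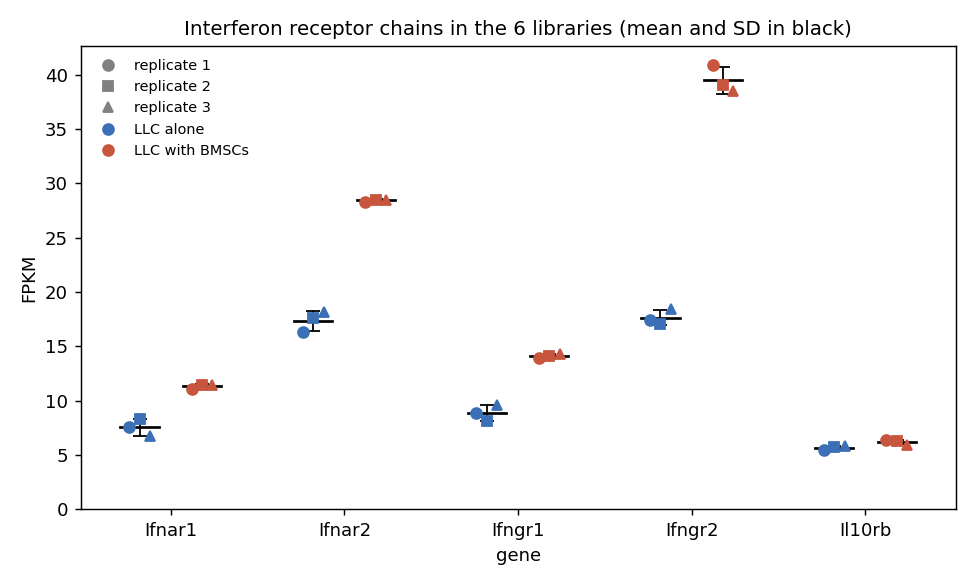
FPKM (vertical axis) of the 4 tested receptor chains and Il10rb in each library, with symbols for replicates, colours for groups, and the group mean and SD (n = 3) in black. The groups are apart for each gene, by most for Ifngr2 (17.6 ± 0.69 against 39.5 ± 1.24) and by least for Il10rb (5.64 ± 0.21 against 6.19 ± 0.22).

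The mean levels had the same order in both groups, while the overlap of neighbours differed. In LLC alone, Ifngr2 (17.6 ± 0.69 FPKM, SD, n = 3) and Ifnar2 (17.4 ± 0.92 FPKM) overlapped, and Ifngr1 (8.86 ± 0.76 FPKM) and Ifnar1 (7.54 ± 0.80 FPKM) overlapped. Il10rb was the lowest. In LLC with BMSCs no neighbours in the order overlapped, from Ifngr2 (39.5 ± 1.24 FPKM) through Ifnar2 (28.4 ± 0.12 FPKM), Ifngr1 (14.1 ± 0.20 FPKM) and Ifnar1 (11.3 ± 0.20 FPKM) to Il10rb.

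Il10rb, the shared partner of the type III receptor, lies between Ifnar2 and Ifnar1 on the chromosome. It was at 5.41, 5.69 and 5.82 FPKM in LLC alone and at 6.34, 6.30 and 5.94 FPKM in LLC with BMSCs. Its log2 fold change in counts, 0.11 ± 0.07 (SE), did not pass the test (edgeR adjusted p = 0.21), although its FPKM values did not overlap. With the trend over length removed it was called higher, at 0.24 (edgeR adjusted p = 0.0094). Ifnlr1, its partner for type III interferon, had 0, 0 and 1 counts in LLC alone and 1, 0 and 1 in LLC with BMSCs. These 3 counts in all are at or under the floor of 3 counts per library, which corresponds to 0.065 to 0.090 CPM, and no fold was computed.

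The ligands were almost unmeasured. Ifng had 0 counts in each library of LLC alone and 4, 1 and 0 counts in LLC with BMSCs replicates 1 to 3, and 1 library alone exceeded the floor. An exact two-sided permutation test of these counts gave p = 0.4. Ifnb1 was not listed in any library. Of 17 other type I interferon genes, 5 were listed, and Ifnz was the 1 tested, at 0.21 ± 0.05 FPKM without and 0.30 ± 0.05 FPKM with BMSCs (log2 fold change 0.44 ± 0.26, SE, edgeR adjusted p = 0.19). Neither of the 2 type III ligand genes looked for was listed. Floors and counts here cover counting error only.

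The ratio of the 2 chains of a receptor was followed per library in FPKM of the genes. Ifngr1 was at 0.508, 0.475 and 0.523 of the level of Ifngr2 in LLC alone, and at 0.341, 0.361 and 0.372 of it in LLC with BMSCs. The groups did not overlap, and the log2 ratio differed by -0.49 (exact two-sided permutation p = 0.1, 0.2 adjusted over the 2 ratios, a design that cannot reach 0.05). Ifnar1 was at 0.461, 0.474 and 0.371 of the level of Ifnar2 in LLC alone, and at 0.392, 0.400 and 0.403 of it in LLC with BMSCs. Here the groups overlapped, with replicate 3 of LLC alone below every other library, and the log2 ratio differed by -0.12 (exact permutation p = 0.4, 0.4 adjusted). Without that replicate the difference was -0.23. The level of Ifnar2 in this ratio takes in both of its transcripts, 1 of which encodes a soluble form. Its long transcript, for the membrane-spanning form, was at 4.84, 5.23 and 5.10 FPKM in LLC alone. It was at 7.21, 7.46 and 7.19 FPKM in LLC with BMSCs. Ifnar1 lay above this transcript in every library, and a ratio to it alone was not tested. The trend over transcript length was not removed for the ratios.

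Ifnar2 was the 1 member listed with 2 transcripts. The short one, of 1169 bases, encodes the soluble form of the receptor, which ends before the membrane, and the long one, of 3051 bases, encodes the membrane-spanning form. In GENCODE their coding sequences share the first 710 bases, after which the short form has 34 coding bases of its own and the long form 829. The ends are shown to mark where the forms part, with 30 shared coding bases in lower case followed by form-specific coding bases in capitals, all 34 for the short form and the first 90 for the long form. The short form is read through at chr16:91393885-91393948, and the long form continues in the next coding exon at chr16:91399218-91399308 (GRCm38, + strand), an exon whose first base is the last of the shared ones.
Ifnar2 short form: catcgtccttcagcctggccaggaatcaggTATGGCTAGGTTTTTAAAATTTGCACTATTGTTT
Ifnar2 long form: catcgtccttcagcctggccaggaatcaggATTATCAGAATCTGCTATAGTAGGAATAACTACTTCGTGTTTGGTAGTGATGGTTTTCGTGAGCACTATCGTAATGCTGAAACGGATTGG

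The short transcript was at 11.5, 12.4 and 13.1 FPKM in LLC alone and at 21.1, 21.1 and 21.3 FPKM in LLC with BMSCs, 1.72-fold higher in the mean. The long transcript was at 4.84, 5.23 and 5.10 FPKM in LLC alone and at 7.21, 7.46 and 7.19 FPKM in LLC with BMSCs, 1.44-fold higher. Both were thus higher without overlap. The short form made up 70.9% ± 0.92 of the FPKM of Ifnar2 in LLC alone and 74.4% ± 0.48 in LLC with BMSCs (SD, n = 3). The share differed by 3.52 percentage points (exact two-sided permutation p = 0.1, also 0.1 adjusted over the 2 transcripts, the smallest possible). These values are estimates that divide fragments between transcripts with common exons.

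**Figure D2:**
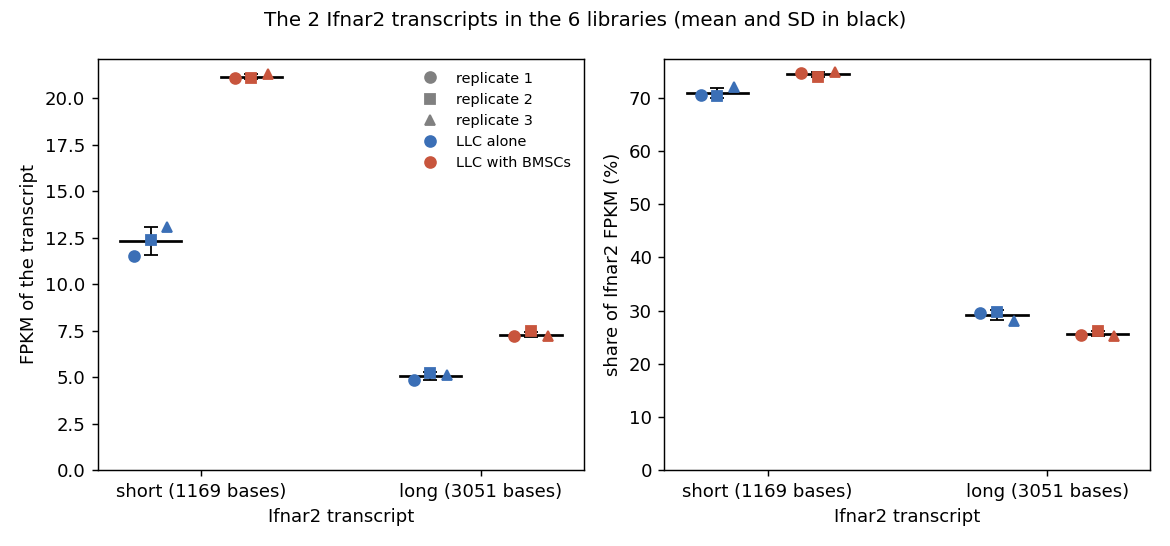
FPKM (left) and share of the FPKM of Ifnar2 in percent (right) of its short and long transcripts in each library, with the mean and SD of each group in black. The short form is the more abundant in each library, and its share is 70.3% to 71.9% in LLC alone and 73.8% to 74.8% in LLC with BMSCs.

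Genes next to the cluster did not all move with the receptors. Of 9 tested neighbours, Il10rb among them, 2 were called higher, 2 lower and 5 neither, with a median log2 fold change of 0.11. Over all tested genes 31.5% were called higher and 31.3% lower, so that calls in both directions were common. Gart, a purine synthesis enzyme, and Son, a splicing factor, were called higher by 0.37 ± 0.06 and 0.47 ± 0.12 (log2, SE). Cryzl1, a quinone reductase-like gene, fell by 1.14 on the log2 scale and Atp5o, a subunit of ATP synthase, fell by 0.57. Tmem50b, the nearest gene after Ifngr2, was at -0.11 ± 0.07 (SE, edgeR adjusted p = 0.17). Dnajc28 (0.38 ± 0.27), Donson (0.04 ± 0.05) and Itsn1 (0.16 ± 0.10) also did not pass, and Olig1 and Olig2 were not listed. Son and Donson overlap on opposite strands, and whether the counting used strand is not given in the sources used here.

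**Figure D3:**
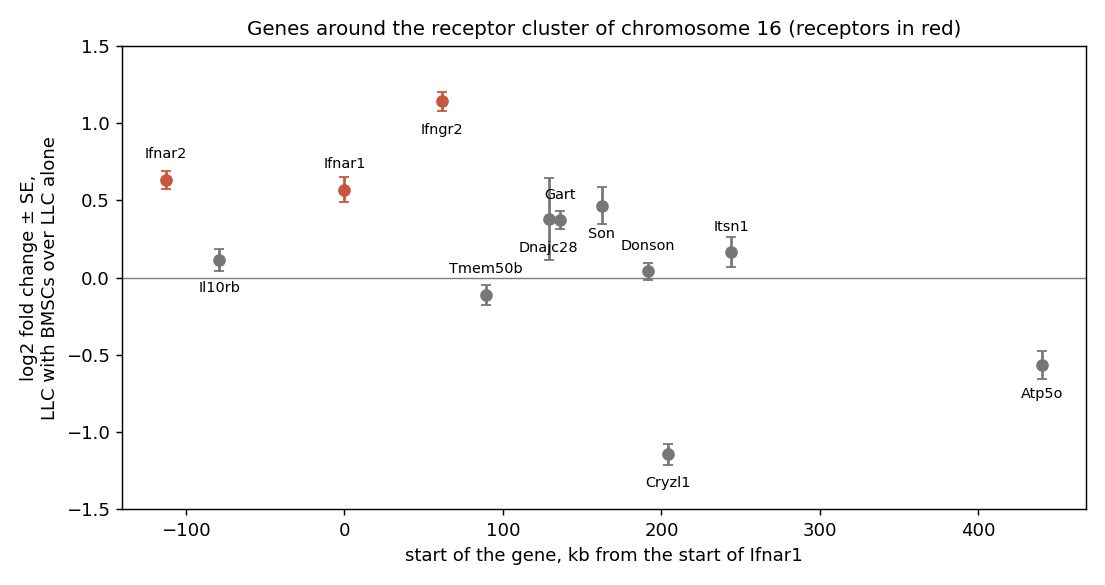
Log2 fold change with its SE (vertical axis) against the distance of each gene's start from that of Ifnar1 in kb (horizontal axis), with the receptor chains among the members in red and neighbours in grey. Ifnar2, Ifnar1 and Ifngr2 are above 0.5, whereas Il10rb between them is at 0.11 (0.24 with the trend over length removed, where it was called) and Cryzl1 further along is at -1.14.

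The genes that work below the receptors were also followed, from lists drawn up with earlier results known. The shares to set beside each count that follows are those over all tested genes, 31.5% called higher and 31.3% lower. All 6 tested receptor kinases and transcription factors were called higher, though the call of Jak1 (edgeR adjusted p = 0.034) was lost whenever 1 library with BMSCs was left out (0.073 to 0.095), and with the trend over length removed (log2 fold change 0.08, 0.096). Their median log2 fold change was 1.35, against 0.01 over all tested genes. The kinases changed least, with Jak1 at 0.27 ± 0.09, Tyk2 at 0.65 ± 0.07 and Jak2 at 0.70 ± 0.07 (log2, SE). Stat2, a transcription factor of the type I response, rose from 1.76 ± 0.07 to 21.4 ± 0.80 FPKM (SD, n = 3), and Irf9, which binds DNA in the type I transcription complex, from 0.033 ± 0.058 to 5.14 ± 1.04 FPKM.

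Of 10 genes of receptor feedback and turnover, 6 were called higher, none lower and 4 neither (median log2 fold change 0.36). Usp18, which binds Ifnar2 and dampens its signal, rose from 0.17 ± 0.04 to 5.73 ± 0.62 FPKM, and Socs3, an inhibitor of cytokine receptors, from 7.53 ± 0.46 to 31.5 ± 1.60 FPKM. Ptpn6, a phosphatase, rose by 1.04 ± 0.11 (log2, SE). Csnk1a1, Prkd2 and Btrc, which take part in the removal of Ifnar1 from the surface, rose by 0.44 ± 0.05, 0.62 ± 0.19 and 0.29 ± 0.06. Socs1 (0.04 ± 0.12), Ptpn1 (0.10 ± 0.06), Ptpn2 (-0.05 ± 0.08) and Ptpn11 (-0.08 ± 0.09) did not pass the test. The call of Btrc was lost with the trend over length removed (0.05), and that of Prkd2 without replicate 1 or 2 of either group (edgeR adjusted p = 0.059 to 0.080). Ptpn11 was called lower without replicate 3 of LLC alone (-0.17) and with the trend over length removed (-0.29).

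Of the targets of type I and type III interferon, 15 of 15 tested genes were called higher (median log2 fold change 4.75). Oasl2 rose from 0.057 ± 0.006 to 12.2 ± 0.31 FPKM. Oas2, a sensor of double-stranded RNA, was at or under 3 counts in each library of LLC alone and at least 102-fold higher in LLC with BMSCs, against that floor per library. The smallest rises were in Ifit2 (log2 0.51 ± 0.08) and Oasl1 (2.27 ± 0.08). Of 13 tested targets of interferon gamma, 12 were called higher and 1 lower (median 2.61, or 2.58 with genes at the floor set to their bound). Iigp1, a GTPase acting on intracellular parasites, was at 0 FPKM in LLC alone and at least 100.1-fold higher against the floor, and Gbp3 rose from 0.057 ± 0.025 to 10.2 ± 0.33 FPKM. Cd274, the checkpoint ligand PD-L1, rose from 1.76 ± 0.02 to 3.11 ± 0.34 FPKM, whereas Cd74, the invariant chain of MHC class II, fell from 4.93 ± 0.77 to 2.80 ± 0.28 FPKM.

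Among 12 tested inducers of interferon beta, 7 were called higher, 3 lower and 2 neither (median 0.34). Irf7 rose from 0.28 ± 0.05 to 10.5 ± 0.42 FPKM and Ifih1, an RNA sensor, from 0.077 ± 0.012 to 1.06 ± 0.02 FPKM. The kinase Tbk1 rose by 0.30 ± 0.06 (log2, SE), and the adaptor Mavs fell by 0.31. The call of Mavs was lost without replicate 2 or 3 of LLC with BMSCs (edgeR adjusted p = 0.054 and 0.055). Of 6 tested inducers of interferon gamma and their receptors, 3 were called higher, 1 lower and 2 neither (median 0.36). Il18rap, a chain of the interleukin 18 receptor, rose from 22.6 ± 2.33 to 79.5 ± 0.77 FPKM, and its partner Il18r1 was called higher at 0.023 ± 0.006 and 0.083 ± 0.021 FPKM. Eomes rose by 0.43 ± 0.16 and Il12rb2 fell by 0.39, while Il18 (0.30 ± 0.23) and Il12rb1 (-0.07 ± 0.17) did not pass. The call of Eomes (edgeR adjusted p = 0.048) was lost in 11 of 15 refits, among them each that left out 1 library, and Il18 was called higher without replicate 3 of LLC alone (0.57).

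**Figure D4:**
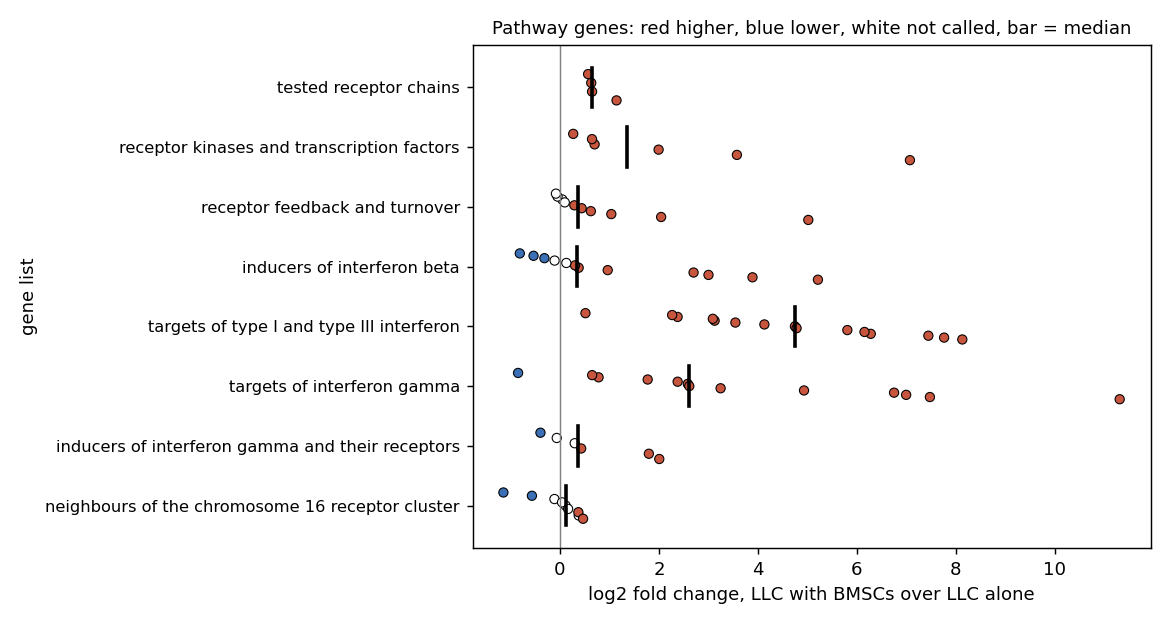
Log2 fold changes (horizontal axis) of the tested receptor chains and of the tested genes of 7 lists, 1 point per gene, red where called higher, blue where called lower and white where not called, with the median as a bar. The receptor chains lie at 0.57 to 1.14, below the medians of the interferon targets (4.75 and 2.61). Genes at or under the floor in LLC alone, among them Oas2 (8.13) and Iigp1 (11.3), are drawn at their fitted values. For these genes only a lower bound on the change is known.

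Several of the marker lists drawn up for other cell types also differed between the groups. The 10 neutrophil markers summed to 0.469 to 0.789 CPM in LLC alone and 21.2 to 24.0 CPM in LLC with BMSCs, with 7 of 7 tested called higher. Ly6g (0.08 ± 0.04 and 0.05 ± 0.03 FPKM) and Elane (0 and 0.23 ± 0.09 FPKM) were too low to test, and Retnlg was not listed. In LLC with BMSCs, S100a8 and S100a9 were at 20.2 ± 2.20 and 22.4 ± 2.90 FPKM, whereas Cxcr2 was at 0.27 ± 0.02 FPKM. The 13 leukocyte and macrophage markers summed to 24.0 to 28.8 and 36.9 to 39.8 CPM, with 7 of 9 tested called higher and 1 lower. The lower one was Cd68, from 5.55 ± 0.51 to 3.03 ± 0.36 FPKM. Cd14, the highest of the list in FPKM, was not called (9.49 ± 0.97 and 10.1 ± 0.87 FPKM, edgeR adjusted p = 0.59). The 15 mesenchymal stromal markers summed to 499 to 580 and 1094 to 1129 CPM, with 13 of 13 tested called higher. Of these 15, 8 already reached a mean of 1 FPKM in LLC alone, where Col3a1 was at 41.2 ± 3.82 and Prrx1 at 29.2 ± 2.16 FPKM. Cxcl12 (0 and 0.09 ± 0.02 FPKM) and Thy1 (0 and 0.013 ± 0.015 FPKM) of this list were too low to test. The calls of Eng and Pdgfrb were lost in 4 and 1 of 17 refits. The pan-leukocyte marker Ptprc rose from 0.03 ± 0.02 to 0.45 ± 0.04 FPKM (log2 3.90 ± 0.30, SE). T and NK cell markers summed to at most 1.38 CPM in any library and 5 of 17 were not listed, plasmacytoid dendritic cell markers other than Cox6a2 (4.89 ± 0.37 and 0.28 ± 0.10 FPKM, called lower) were below 0.1 FPKM in the mean, and 0 of 5 endothelial markers reached 1 FPKM. The part of these cells in the receptor differences was not tested, and in sorted bulk samples more cells of a type and more RNA per cell cannot be told apart. As a check of the label, Krt8 was at 95.3 ± 5.98 and 110.0 ± 2.85 FPKM, but the other 5 carcinoma markers looked for, Epcam and Cdh1 among them, stayed below 1 FPKM.

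The genes most like each receptor over the 6 libraries were found among 10509 genes by the root mean square difference of centred log2 CPM. For Ifnar1 they were Camk2g (0.022), Kif15 (0.029) and Foxk2 (0.032). For Ifnar2 they were Apba3 (0.020), Pola2 (0.021) and Qars (0.024), and for Ifngr1 they were Slc22a21 (0.038), Mxd3 (0.039) and 4930427A07Rik (0.040). For Ifngr2 they were Aurkb (0.023), Egln1 (0.030) and Relb (0.037). Other receptor chains ranked further down, Ifngr1 being at 0.078 from Ifnar2 (rank 202) and Ifnar1 at 0.108 from it (rank 496). No receptor chain was thus among the 3 genes most like another, though Ifnar2 had rank 112 of 10509 genes for Ifngr1.

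**Figure D5:**
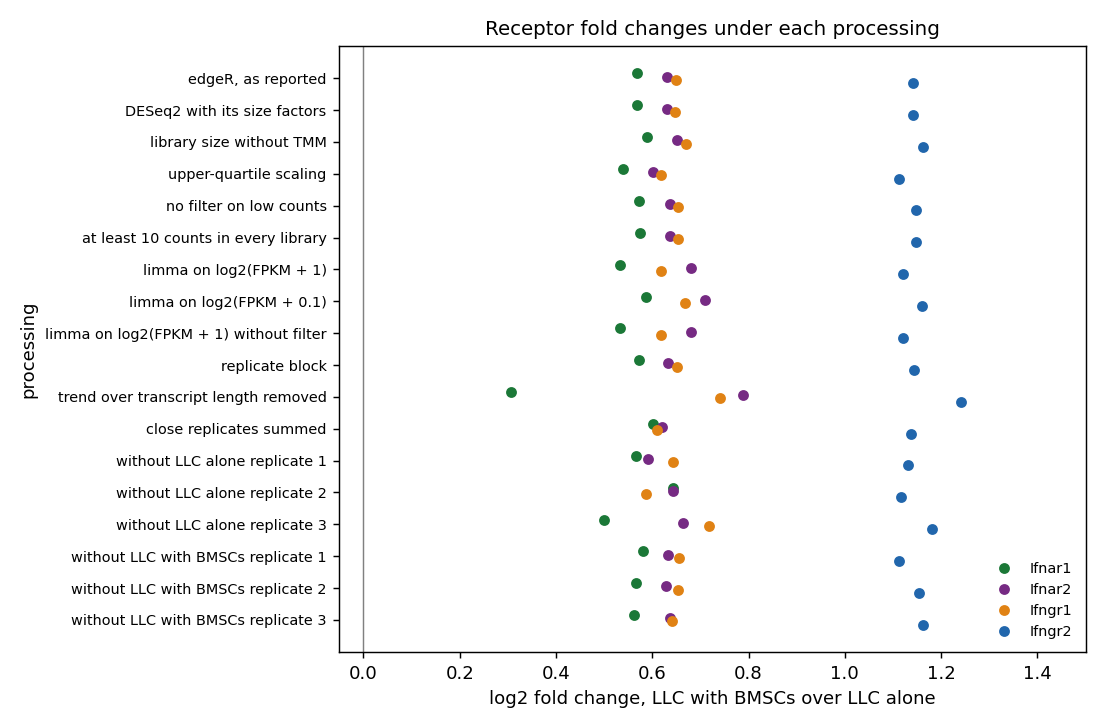
Log2 fold changes (horizontal axis) of the 4 tested chains under the reported fit and each alternative processing (vertical axis). Each point is above 0, and the point that moves most is Ifnar1, from 0.57 to 0.31 with the trend over transcript length removed.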

How the data were processed

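RNA of sorted LLC cells was sequenced in 3 libraries per group. Per the paper, mRNA was captured with oligo-dT and read on the BGISEQ-500 as pairs of 100 bp, while the labels name Illumina protocols. The submitters' processing notes name HISAT, StringTie, Cufflinks, GATK and mm8 without roles. The authors deposited estimated counts, which divide fragments between similar genes and need not be whole, the gene length, and FPKM per gene and transcript, which shift with length and with abundant genes. Coordinates and promoters were taken from GRCm38, since the files hold none, and all 7 members matched a promoter.

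Estimated counts, totalling 33476347 to 46189113 per library, were rounded, filtered by the default of edgeR 4.0.16 (R 4.3.3), scaled by TMM and tested by its quasi-likelihood test with Benjamini-Hochberg adjustment over 13353 genes, at 0.05. The SE is the absolute log2 fold change over the root of the test statistic. Shares and ratios had exact permutation tests (10 splits). Alternatives used DESeq2 1.42.0, limma 3.58.1, other scalings and filters, and left-out libraries. The scripts were tested on simulated data. The members, lists and motifs were chosen with earlier results of these data known. Genes named in a list are the 2 largest and 2 smallest called changes among genes of at least 1 FPKM in either group, or all tested genes in lists of up to 10. Ptprc, Cd68, Cd14, Ly6g, Elane, Retnlg, S100a8, S100a9, Cxcr2, Col3a1, Prrx1, Cxcl12, Thy1, Epcam and Cdh1 were named after their values were seen. The values of 1 gene of a list are not reported here.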

Additional observations from a re-analysis of the deposited data

How the results depend on the processing

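The 4 receptor chains kept their direction and their calls under 17 refits each, with log2 fold changes of 0.31 to 0.64 for Ifnar1, 0.59 to 0.79 for Ifnar2, 0.59 to 0.74 for Ifngr1 and 1.11 to 1.24 for Ifngr2. Their highest adjusted p-values were 0.0068, 0.0029, 0.0048 and 0.00043. Ifnar1 fell to 0.31 with the trend over transcript length removed, and the cause was not tested. A further limit on size, of 1 on the log2 scale, left 1 of the 4 chains, 1155 genes higher, 957 genes lower, and 1 pathway gene called lower in place of 7, by the construction of that threshold. The change of the log2 ratio of Ifnar1 to Ifnar2 ranged from -0.23 to -0.05 over 8 alternatives, and that of Ifngr1 to Ifngr2 from -0.53 to -0.45. Removal of the trend over length was not among these 8. In the gene fits with it removed, Ifnar1 (0.31) and Ifnar2 (0.79) were further apart than in the reported fit (0.57 and 0.63). Ifngr1 and Ifngr2 were then at 0.74 and 1.24, against 0.65 and 1.14. The gain of the short Ifnar2 form ranged from 3.21 to 4.40 percentage points over 7 alternatives. With the trend over length removed, Son was at 0.15 and Atp5o at -0.22, both still called. Socs1 (0.29) and Il18 (0.61) then became called higher, and Ptpn11 (-0.29) lower. With close replicates summed, the calls of Jak1, Eomes, Mavs and Tbk1 were lost. Same-numbered libraries of the groups deviated together with correlations of 0.08, -0.11 and 0.06, within the range of the other pairs (-0.16 to 0.15). With 3 libraries per group this cannot settle whether the numbers pair them. With the replicate block, the chains were at 0.57, 0.63, 0.65 and 1.14 and 4 were called, and 4161 and 4058 genes were called higher and lower, against 4210 and 4183 without it. Replicates 1 and 2 of LLC alone, and 2 and 3 of LLC with BMSCs, were closer to each other than to the third library, yet differed by more than sampling noise. With these summed, 4 chains were still called. Depth limits what can be said of Ifng, Ifnlr1 and Ifnb1, which are at or near the floor of 3 counts.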
